A study of Mus musculus with 16 samples.

Results

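The 9 genes Gpm6a, Gpm6b, Mbp, Mog, Mag, Mobp, Cnp, Cldn11 and Mal were described across the cell classes of the mouse medial PFC. They were chosen by name, as the rows of these 9 genes among the 19999 genes of the count table. Gpm6b was among them because its level differed between genotypes in these mice, so its genotype values are given as a description, without a test. Single-nucleus RNA-Seq libraries came from 16 male mice aged 22 weeks, with 4 mice in each of 4 groups. The groups were WT mice on the B6;129 background kept in air, WT mice exposed to intermittent alcohol vapor, 3xTg-AD mice kept in air, and 3xTg-AD mice exposed to the vapor. 3xTg-AD mice carry, among their alleles, transgenes for human APP and human tau with disease mutations, on a B6;129 background. Per the study's methods, all mice received pyrazole, an inhibitor of alcohol dehydrogenase, so that every group shares it, and the vapor groups were injected with ethanol beside it. By the study's account, tissue was taken more than a week after the last vapor exposure and days after water maze testing. Alcohol here therefore means a history of exposure. The study calls the WT mice littermate controls, which the labels do not state.

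Myelin is the membrane that oligodendrocytes wrap around axons. Mbp, a basic protein, is among its main structural proteins and holds the cytoplasmic faces of the membrane together. Mag sits on the membrane next to the axon, Mog on the outermost surface, and Cldn11 forms the tight junctions between the wraps. Mobp is a small basic protein of compact myelin, Cnp is an enzyme of the non-compact parts, and Mal is a proteolipid of membrane rafts. Gpm6a and Gpm6b are the M6 proteolipids, membrane glycoproteins with several passes. Gpm6a is known from neurons, where it acts in the growth of neurites and filopodia, and Gpm6b is known from both neurons and glia.

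The data held 114512 nuclei and 216742276 unique molecular identifiers (UMIs). Nuclei per mouse ranged from 4955 to 9096 and UMIs per mouse from 9622031 to 17544364. Of the barcodes, 1694 occurred in more than 1 library. Nuclei were clustered without the 9 genes and without the other myelin genes listed here, and 77267 of them fell in clusters that could be named from markers. The other 37245 (32.5%) stayed without a class. Named classes were glutamatergic neurons (49480 nuclei), GABAergic neurons (9828), astrocytes (7693), microglia and perivascular macrophages (3393), oligodendrocytes (2876), oligodendrocyte precursors (OPC, 2444), vascular leptomeningeal cells (VLMC, 672), endothelial cells (647) and pericytes (234). Levels are given as CPM, the UMIs of a gene per 1000000 UMIs of that class and mouse, with the SD over mice. In oligodendrocytes the sum of 10 markers that include none of the 9 genes (among them St18, Aspa and Opalin) was 1852 CPM, against 11.9 CPM in glutamatergic neurons, and no marker was at 0 in oligodendrocytes. These nuclei also held RNA of other cells. The 6 glutamatergic markers summed to 951 CPM in oligodendrocytes and to 1009 CPM in microglia, which should lack them, against 1374 CPM in glutamatergic neurons. The 11 astrocyte markers summed to 4852 CPM in VLMC, against 6662 CPM in astrocytes, 408 CPM in oligodendrocytes and 913 CPM in microglia. Median depth was 887 UMIs in an oligodendrocyte nucleus and 2428 in a glutamatergic nucleus. A transcript resembling ribosomal RNA, Gm42418, was high in 3 mice (WT control 26 and 27 and 3xTg-AD 12), at 17914 CPM or more, while the remaining 13 mice had 4249 CPM or less.

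Coordinates are those of GRCm38 (mm10) with the GENCODE M21 annotation. Gpm6b lies on the plus strand of the X chromosome at chrX:166238911-166388988, of which male mice have a single copy. Its paralog Gpm6a lies at chr8:54954843-55060871 on the plus strand. RefSeq promoters of 8 of the 9 members (11 windows) were found. The 250 bases before a start are shown on the gene's strand for 3 genes, because the first differed between genotypes in nearly every class, the second is its paralog and the third was the member most restricted to oligodendrocytes. Capitals mark matches on either strand to TATAAA, the TATA box, or to ACAAAG, a core that Sox factors bind. The windows are chrX:166238693-166238942 for Gpm6b, chr8:54954478-54954727 for the downstream start of Gpm6a, and chr7:30914864-30915113 for Mag (RefSeq, GRCm38.p6).
Gpm6b: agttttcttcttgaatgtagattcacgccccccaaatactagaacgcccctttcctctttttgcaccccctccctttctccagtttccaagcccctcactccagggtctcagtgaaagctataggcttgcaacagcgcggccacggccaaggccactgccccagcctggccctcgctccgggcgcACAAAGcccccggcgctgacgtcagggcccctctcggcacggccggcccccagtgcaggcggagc
Gpm6a: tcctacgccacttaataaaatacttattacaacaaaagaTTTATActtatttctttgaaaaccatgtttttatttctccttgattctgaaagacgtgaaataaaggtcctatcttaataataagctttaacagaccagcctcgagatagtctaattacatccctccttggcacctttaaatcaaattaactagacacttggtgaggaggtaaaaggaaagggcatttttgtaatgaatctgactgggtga
Mag: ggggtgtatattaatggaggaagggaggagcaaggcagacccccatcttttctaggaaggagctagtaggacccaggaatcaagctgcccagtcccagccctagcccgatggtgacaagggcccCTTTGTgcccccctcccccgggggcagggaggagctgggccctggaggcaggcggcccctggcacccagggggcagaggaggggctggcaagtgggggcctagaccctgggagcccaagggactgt
The GC content of these windows was 63.2% for Gpm6b, 33.6% for Gpm6a and 66% for Mag. ACAAAG occurred once in the windows of Gpm6b and Mag and TATAAA once in that of Gpm6a. The window of the upstream start of Gpm6a (chr8:54779184-54779433) held no TATAAA and had a GC content of 44.4%. For Mag, the window at chr7:30914923-30915172 held ACAAAG and that at chr7:30914322-30914571 did not. Of 32851 mouse promoter windows of this length, 16.5% held ACAAAG and 12.4% held TATAAA, so neither match is rare, and a match shows only that these letters are present.

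All 7 myelin genes were highest in oligodendrocytes. Each was higher there than in the glutamatergic neurons of the same mouse in 16 of 16 mice. The classes were drawn by clustering and the differences between them are described without a test. Mag had the steepest gradient, at 961 ± 183 CPM (SD, n = 16) in oligodendrocytes and 3.91 ± 1.44 CPM in glutamatergic neurons, a ratio of 246. Mog followed with 247 ± 82.6 CPM and a ratio of 89.2 over glutamatergic neurons. Mbp stood at 2841 ± 436 CPM in oligodendrocytes and 55.7 ± 6.24 CPM in glutamatergic neurons, a ratio of 51.0. Ratios for Mal, Cldn11 and Mobp were 48.3, 46.1 and 41.6. Cnp had the shallowest gradient of the 7, with 236 ± 61.6 CPM in oligodendrocytes and a ratio of 18.7. With classes taken from the marker UMIs of each nucleus in place of clusters, the log2 ratios were smaller, at 7.0 in place of 7.94 for Mag, 4.97 in place of 5.67 for Mbp, 4.94 in place of 5.60 for Mal and 4.71 in place of 5.38 for Mobp, with Mag still the steepest and Cnp (3.79) the shallowest of the 7. Gpm6a and Gpm6b did not follow the myelin genes, and their ratios of oligodendrocytes over glutamatergic neurons were 1.46 and 1.48.

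**Figure D1:**
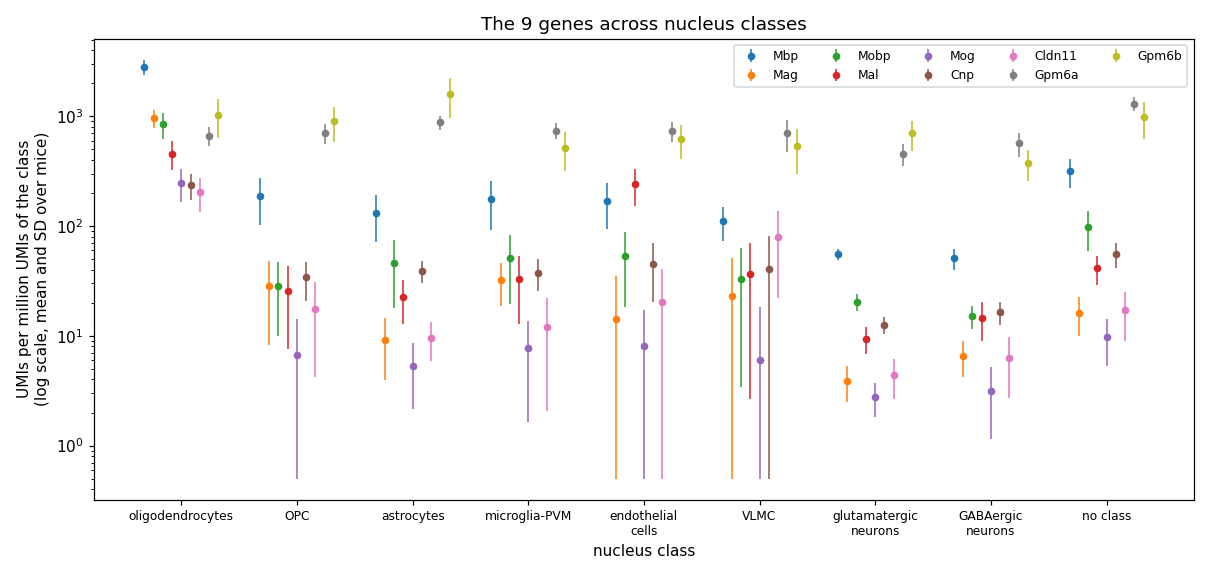
CPM of the 9 genes (logarithmic axis) in each cell class, as the mean over mice with the SD, where lower bars are drawn no lower than 0.5 CPM. The 7 myelin genes peak in oligodendrocytes, where Mbp reaches 2841 CPM, whereas Gpm6a and Gpm6b stay above 375 CPM in each class.

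Oligodendrocytes were 2.51% of the nuclei and held 65.5% of the Mag UMIs and 46.1% of the Mog UMIs. They held 27.8% of the Cldn11 UMIs, 27.4% of those of Mbp and of Mal, and 26.2% of those of Mobp, and 39.3% of the Mbp UMIs were in nuclei without a class. For Cnp the share in oligodendrocytes was 13%, less than the 27.8% in glutamatergic neurons, which were far more numerous. Oligodendrocytes held 1.43% of the Gpm6a UMIs and 1.96% of the Gpm6b UMIs, against 1.48% of the UMIs of all genes. The mix of myelin RNA thus differed by class. Among the UMIs of the 7 myelin genes, Mag made up 16.4% in oligodendrocytes, 3.54% in glutamatergic neurons and 2.91% in nuclei without a class. Cnp made up 4.06%, 11.5% and 10.3% of them in the same order. Mbp varied less, at 49.1%, 51.0% and 57.4%.

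Outside oligodendrocytes, the level in nuclei without a class, which had a median of 855 UMIs, is given as a point of reference, and whether free RNA gives the values below it was not tested. These nuclei formed unlike clusters. Mbp was 203 CPM in that of 16814 nuclei, 396 CPM in that of 10312 and 546 CPM in that of 5101. Shares of the reference thus depend on the mix of these clusters. Mbp in microglia and in OPC was 55.1% and 59.0% of its level in all nuclei without a class. Mag was above its reference, with 32.5 CPM in microglia and 28.2 CPM in OPC, against 16.2 CPM in nuclei without a class. Mal reached 241 ± 87.8 CPM in endothelial cells, 5.86 times its 41.1 CPM in nuclei without a class. Cldn11 had 79.6 ± 57.6 CPM in VLMC. Within VLMC it was uneven, with 197 ± 118 CPM (11 mice) in the cluster led by Slc47a1 and Fn1 and 28.6 ± 25.9 CPM (13 mice) in that led by Ptgds and Slc6a13. VLMC numbered 672 nuclei over all mice, and these levels rest on few nuclei each.

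Myelin RNA counted in neurons went with the amount of oligodendrocyte RNA in the library. The sum of the 7 myelin genes in glutamatergic neurons ranged from 85.1 to 131 CPM over the 16 mice, and oligodendrocytes held between 0.464% and 2.52% of the UMIs of a mouse. Across the mice Pearson's r between these 2 values was 0.78 (permutation p = 0.00066) and Spearman's rho was 0.79 (permutation p = 0.00046). Without WT control mouse 36 and 3xTg-AD alcohol mouse 34, the farthest from the median of the second value, r was 0.69. Both values came from the same library, and the part of free RNA in them was not tested.

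**Figure D2:**
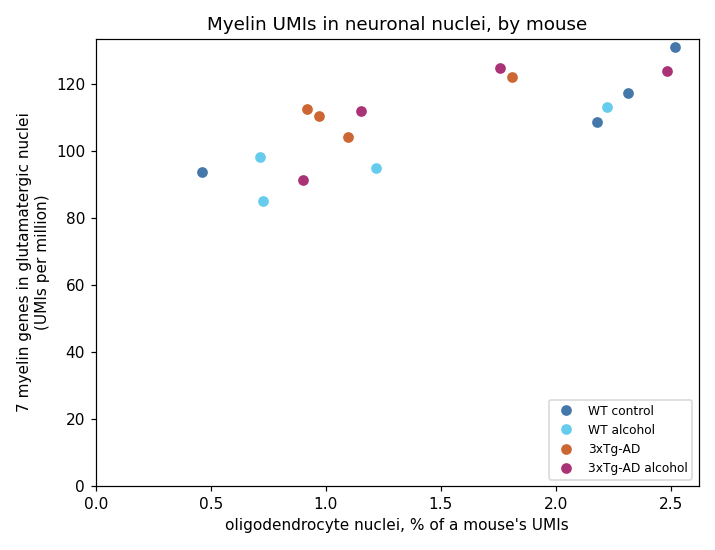
Summed CPM of the 7 myelin genes in glutamatergic neurons against the percent of a mouse's UMIs that lay in oligodendrocytes, 1 point per mouse, colored by group. The neuronal values run from 85.1 to 131 CPM and are higher in mice with more oligodendrocyte UMIs.

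The 2 M6 genes had different patterns over the classes. Gpm6b was highest in astrocytes, at 1600 CPM over the 16 mice, then in oligodendrocytes (1040 ± 399), nuclei without a class (984 ± 367), OPC (905) and glutamatergic neurons (702 ± 213), and lowest in GABAergic neurons (376). Neighbors in this order overlapped when mice of both genotypes were pooled. Within the same mouse, oligodendrocytes were above astrocytes in 0 of 16 mice and above nuclei without a class in 12. They were above OPC in 14 and above glutamatergic neurons in 16. Within astrocytes, the cluster led by Myoc and Gfap (850 nuclei) had 3189 ± 1155 CPM of Gpm6b against 1279 ± 489 CPM in the other, larger one. Gpm6a was highest in nuclei without a class, at 1306 ± 187 CPM, and second in astrocytes, at 887 CPM. In glutamatergic neurons it was 456 ± 102 CPM, the lowest of all classes, and in GABAergic neurons 566 CPM. In oligodendrocytes, microglia, endothelial cells and OPC, Gpm6a lay between 667 and 741 CPM, or 51.1% to 56.8% of the level in nuclei without a class. The glutamatergic markers themselves stood at 951, 1009, 865 and 824 CPM in these classes and at 1502 CPM in nuclei without a class. At these shares Gpm6a in those 4 classes cannot be told apart from RNA that the nuclei took up from others. Gpm6b was 106% of its level in nuclei without a class in oligodendrocytes, and 163% in astrocytes. The former is a log2 ratio of 0.08, against an SD of 0.28 over the ratios within each mouse. Gpm6b was not even over the clusters without a class, at 798 CPM in that of 16814 nuclei, 1069 CPM in that of 10312 and 1432 CPM in that of 5101.

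Over the 9 class means, the genes with the pattern most like that of Gpm6a were Gstm5 (Pearson's r = 0.975), Nudt9 (0.972), Ldhb (0.969), Mrpl18 (0.959) and Cd63 (0.956). Gpm6b was most like Myh14 (0.942), Ccdc13 (0.924), 6530402F18Rik (0.911), Diaph3 (0.884) and Nckap5 (0.878). For Mbp they were Mobp (0.976), Aplp1 (0.972), Mog (0.969), Itpk1 (0.967) and Nmral1 (0.962). These are descriptions over 9 points that share libraries, drawn from 13584 genes. Gstm5, Nudt9, Ldhb and Mrpl18 were highest in pericytes, a class of 234 nuclei, where Nudt9 stood at 37.6 CPM. The points for Gpm6a include the classes where its level could not be told apart from RNA of other nuclei.

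Gpm6b was higher in 3xTg-AD mice of either treatment than in WT mice. In oligodendrocytes the 4 WT controls had 514, 601, 633 and 704 CPM and the 4 WT alcohol mice 668, 718, 776 and 850 CPM. The 4 3xTg-AD mice had 1020, 1272, 1285 and 1491 CPM and the 4 3xTg-AD alcohol mice 1398, 1517, 1545 and 1646 CPM. The lowest 3xTg-AD mouse was thus above the highest WT mouse. In astrocytes the 8 WT mice had 801 to 1324 CPM (median 998) and the 8 3xTg-AD mice 1590 to 2628 CPM (median 2139). In glutamatergic neurons the WT mice had 430 to 561 CPM (median 506) and the 3xTg-AD mice 795 to 1033 CPM (median 886). The genotypes did not overlap in OPC, microglia and GABAergic neurons either, so they were apart in 6 of the 8 classes fitted. Over all genes and classes, 0.133% of 56562 had every 3xTg-AD mouse above every WT mouse. Because this contrast chose Gpm6b, nothing is read from that comparison. In endothelial cells and VLMC the mice of the 2 genotypes overlapped. Astrocyte markers, of the class highest in Gpm6b, summed to 5498 CPM in the VLMC of WT mice and 4286 CPM in those of 3xTg-AD mice, and in microglia to 839 to 1754 CPM in WT mice and 325 to 749 CPM in 3xTg-AD mice. Astrocytes themselves had 2.04 times the Gpm6b in 3xTg-AD mice, and the part of their RNA in these levels was not tested.

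The size of the difference varied little over the classes. The mean of the 3xTg-AD mice over that of the WT mice was 2.04 in oligodendrocytes and in astrocytes, 2.03 in microglia, 1.93 in OPC, 1.83 in GABAergic neurons and 1.79 in glutamatergic neurons. It was 1.67 in endothelial cells and 1.65 in VLMC. Nuclei without a class, which the fits did not use, had a ratio of 2.0. Both astrocyte clusters showed the difference, with 2218 ± 458 CPM in WT and 4160 ± 704 CPM in 3xTg-AD mice in the Gfap cluster and 831 ± 89.1 CPM and 1728 ± 210 CPM in the other. Within the air groups the log2 fold change of 3xTg-AD over WT lay between 0.57 (VLMC) and 0.99 (microglia). Within the vapor groups it lay between 0.87 (VLMC) and 1.16 (astrocytes). For microglia, Gpm6b was 52.4% of the level in nuclei without a class in the mean over all mice, less than the share of the glutamatergic markers, so the level there cannot be told apart from RNA of other cells. The glutamatergic markers summed to 986 CPM in WT and 917 CPM in 3xTg-AD mice in oligodendrocytes, and to 1042 and 976 CPM in microglia. The part of neuronal RNA, in which Gpm6b also differed, was not tested.

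**Figure D3:**
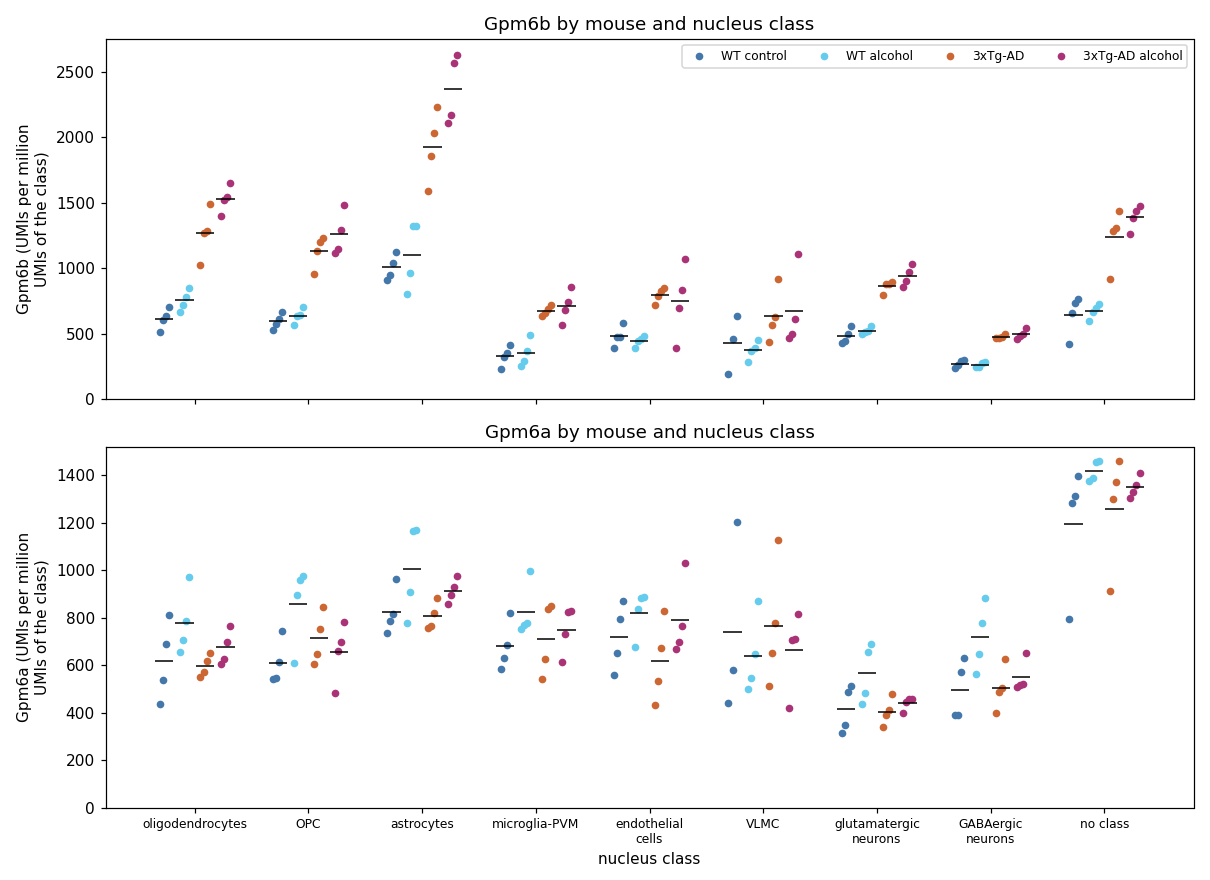
CPM of Gpm6a and Gpm6b in the cell classes by group, 1 point per mouse, with a black line at the group mean and linear axes from 0. Gpm6b is higher in both 3xTg-AD groups (1020 to 1646 CPM in oligodendrocytes) than in both WT groups (514 to 850 CPM), whereas the groups overlap for Gpm6a.

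Gpm6a, the paralog, showed no such separation in any class. In oligodendrocytes the WT mice had 434 to 969 CPM and the 3xTg-AD mice 549.8 to 766 CPM. The ratio of Gpm6a to Gpm6b UMIs, which does not depend on scaling, was 1.03 in the oligodendrocytes of WT mice and 0.463 in those of 3xTg-AD mice. It was 0.869 and 0.405 in astrocytes, 0.975 and 0.471 in glutamatergic neurons, and 2.28 and 1.09 in GABAergic neurons.

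Neither M6 gene was called for alcohol vapor at an adjusted p of 0.05 (edgeR's quasi-likelihood test, Benjamini-Hochberg within class and contrast). Over all genes and classes, 0.0248% of tests were called for alcohol in WT mice and 0.304% in 3xTg-AD mice. For the interaction it was 0.00354%, so the lack of a call says little about these genes. In WT mice the log2 fold change of Gpm6b with alcohol ranged from -0.19 to 0.23 over the 8 classes. In oligodendrocytes it was 0.23 (SE 0.18, adjusted p = 0.734). In 3xTg-AD mice it ranged from -0.04 to 0.35, with the highest value in astrocytes (SE 0.14, adjusted p = 0.414). The interaction of genotype and alcohol was 0.06 to 0.29, with an adjusted p of at least 0.978. For Gpm6a, WT alcohol mice had 435, 484, 655 and 689 CPM in glutamatergic neurons and WT controls 314, 348, 486 and 512 CPM, so the groups overlapped. The log2 fold change was 0.41 (SE 0.13, adjusted p = 0.325) there and 0.49 (SE 0.14, adjusted p = 0.169) in GABAergic neurons. The 2 lowest WT controls were the 2 with high Gm42418. Without the 3 mice with high Gm42418 these changes were 0.26 (adjusted p = 0.581) and 0.29 (adjusted p = 0.577). In OPC of all mice, Gpm6a changed with alcohol in WT mice by a log2 fold change of 0.42 (SE 0.17, edgeR adjusted p = 0.394). Its interaction of genotype and alcohol there was -0.50 (SE 0.23, edgeR adjusted p = 0.948).

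Among the members, counting each class in which a gene passed the filter on low counts, 37 values were tested in each contrast between 3xTg-AD and WT mice (without Gpm6b). Of these contrasts, 3xTg-AD alcohol versus WT control changes genotype and alcohol together. In each alcohol contrast and the interaction 45 values were tested. Gpm6a and Gpm6b passed in all 8 classes, Mbp in 7, Mal in 6, Mobp and Cnp in 5, and Mog, Mag and Cldn11 in 2. None was called in any of the 6 contrasts by edgeR at an adjusted p of 0.05. DESeq2 called none either, but gave an adjusted p to only 32 of the 45 values in WT alcohol versus WT control, and to all values in the other contrasts. Of all genes and classes tested, edgeR called 1.88% in 3xTg-AD alcohol versus WT control, 0.246% in 3xTg-AD versus WT control and 0.55% in 3xTg-AD alcohol versus WT alcohol. It called 0.0248% in WT alcohol versus WT control, 0.304% in 3xTg-AD alcohol versus 3xTg-AD, and 0.00354% for the interaction. At an unadjusted p under 0.05 the members numbered 5 of 37 in 3xTg-AD alcohol versus WT control, where 14.5% of all tests reached it. They numbered 0 of 37 in 3xTg-AD versus WT control (6.82% of all tests) and 4 of 37 in 3xTg-AD alcohol versus WT alcohol (9.53%). In WT alcohol versus WT control they numbered 8 of 45 (9.84% of all tests), in 3xTg-AD alcohol versus 3xTg-AD 1 of 45 (9.64%), and for the interaction 2 of 45 (4.22%). The smallest adjusted p over the 6 contrasts was 0.169. The contrasts share control mice.

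None of the 7 myelin genes was called in oligodendrocytes in any contrast by edgeR. Of the 5150 genes fitted there, 0.505% were called in 3xTg-AD alcohol versus WT control and 0.117% in 3xTg-AD versus WT control. The share was 0.233% in 3xTg-AD alcohol versus WT alcohol, and no gene was called in the alcohol contrasts or the interaction. At these shares 0 of 7 is near what all genes give. Mbp was 1840, 2598, 2689 and 3598 CPM in WT controls and 2562, 2640, 2757 and 3224 CPM in WT alcohol mice. It was 2514, 2762, 2908 and 3596 CPM in 3xTg-AD mice and 2561, 3006, 3065 and 3130 CPM in 3xTg-AD alcohol mice. The 4 groups overlapped, and the log2 fold change of 3xTg-AD alcohol over WT control was 0.05 (SE 0.18). Mal was 158, 334, 439 and 456 CPM in WT controls and 392, 489.7, 588 and 635 CPM in 3xTg-AD alcohol mice, with 1 mouse of the latter inside the range of the former. Its log2 fold change was 0.43 (SE 0.20, adjusted p = 0.525 in edgeR). Cldn11 was 98.9, 129.8, 189.8 and 196 CPM in WT controls and 138, 196, 304 and 305 CPM in 3xTg-AD alcohol mice (log2 fold change 0.47, SE 0.23, edgeR adjusted p = 0.552). Mag was the only one of the 7 below 0 in this contrast, at -0.06. WT control mouse 28, with 42 oligodendrocyte nuclei, was the lowest of all mice for Mbp, Mal, Mag, Cnp and Cldn11.

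The median log2 fold change of the 7 myelin genes in oligodendrocytes was 0.31 for 3xTg-AD alcohol versus WT control, with 6 of 7 above 0, against -0.003 for all 5150 genes fitted. The list of 10 oligodendrocyte markers moved the same way, with means of 1554 CPM for WT controls and 2175 CPM for the 3xTg-AD alcohol group (all 10 detected in both), and its part in the result was not tested. For 3xTg-AD versus WT control the median was 0.09, with 7 of 7 above 0. For 3xTg-AD alcohol versus WT alcohol it was -0.02, and for alcohol it was 0.03 in WT and 0.13 in 3xTg-AD mice. The interaction had a median of -0.13. The last 3 contrasts and the interaction changed sign when single mice were left out, with ranges of -0.17 to 0.14, -0.08 to 0.22, -0.02 to 0.34 and -0.26 to 0.02, and that of 3xTg-AD versus WT control ranged from -0.04 to 0.25. The median for 3xTg-AD alcohol versus WT control ranged from 0.21 to 0.45.

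**Figure D4:**
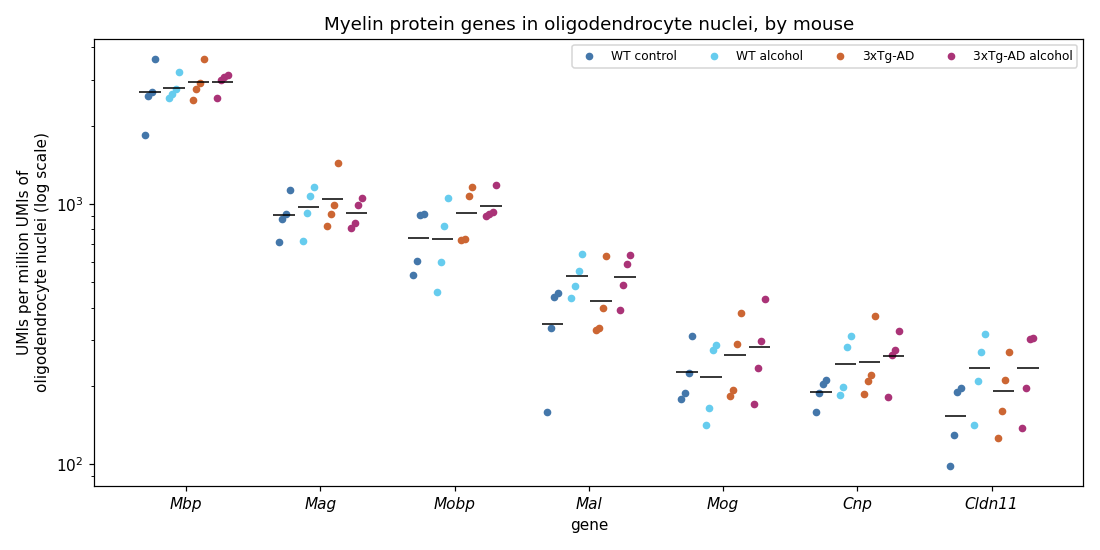
CPM of the 7 myelin genes in oligodendrocytes (logarithmic axis) by group, 1 point per mouse. The groups overlap for each gene, and Mbp runs from 1840 to 3598 CPM over the 16 mice.

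The share of oligodendrocytes among nuclei varied widely between mice, from 0.602% (WT control mouse 28) to 4.94% (WT control mouse 36). Group means were 3.27 ± 1.87% in WT controls, 2.16 ± 1.56% in WT alcohol mice, 2.17 ± 1.02% in the 3xTg-AD group and 2.98 ± 1.49% in the 3xTg-AD alcohol group (SD, n = 4). No pairwise difference passed a two-sided exact permutation test, with p from 0.343 to 0.8 over 5 pairs and adjusted p from 0.607 to 0.8. The smallest p that 4 against 4 mice allow is 0.0286.

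Among 29 other myelin genes, 25 passed the filter in oligodendrocytes. In 3xTg-AD alcohol versus WT control mice, 2 were higher and 1 lower at an adjusted p of 0.05 in edgeR, where 0.505% of the 5150 genes fitted were called. Sirt2, a deacetylase found in the paranodal loops of myelin, was lower in 3xTg-AD alcohol mice than in WT controls. It was 138.5, 139, 181 and 191 CPM in WT controls and 71.2, 76.5, 85.8 and 103.7 CPM in 3xTg-AD alcohol mice, with a log2 fold change of -1.02 (SE 0.24, edgeR adjusted p = 0.0236). It was also lower than in WT alcohol mice, at a log2 fold change of -1.02 (SE 0.25, edgeR adjusted p = 0.0473), the only list gene called in that contrast, where 0.233% of genes were called. That call was lost in 17 of 23 alternatives, and with classes from marker UMIs the change was -0.61 (edgeR adjusted p = 0.482). Over all mice Sirt2 was between 138.5 and 199 CPM in WT and between 44.5 and 132 CPM in 3xTg-AD mice, without overlap, but on 6 to 62 UMIs per mouse. Sirt2 was named because it was called in these same mice, so nothing more is read from this separation. In 3xTg-AD versus WT control mice the change of -0.96 did not pass (SE 0.27, edgeR adjusted p = 0.211), none of the 25 was called and 0.117% of all genes were. For alcohol the log2 fold change of Sirt2 was -0.003 in WT mice (SE 0.23) and -0.06 in 3xTg-AD mice (SE 0.29).

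Apod, a lipid-binding apolipoprotein, rose between WT controls, with 39.6, 119, 124 and 189.8 CPM, and 3xTg-AD alcohol mice, with 178, 217, 265 and 418 CPM (log2 fold change 0.96, SE 0.23, edgeR adjusted p = 0.0273). Trf, the iron carrier transferrin, rose from 257, 324, 355 and 418 CPM to 510.1, 516, 621 and 794 CPM (log2 fold change 0.74, SE 0.19, edgeR adjusted p = 0.0484). The lowest WT control for Apod, mouse 28, rests on 2 UMIs. This contrast changes genotype and alcohol together. For 3xTg-AD versus WT control the log2 fold change was 0.06 for Apod and 0.51 for Trf (edgeR adjusted p = 0.999 and 0.683). For alcohol, Apod was at 0.57 in WT and 0.90 in 3xTg-AD mice (edgeR adjusted p = 0.471 and 0.583). Trf was at 0.35 and 0.22 (edgeR adjusted p = 0.582 and 0.979). In 3xTg-AD alcohol versus WT control, the calls of Apod and Trf were lost without 3xTg-AD alcohol mouse 34. The log2 fold changes were then 0.64 (adjusted p = 0.427) for Apod and 0.57 (adjusted p = 0.360) for Trf in edgeR. Without the 3 mice with high Gm42418 the log2 fold changes were -0.95 for Sirt2, 0.88 for Apod and 0.79 for Trf, close to those with all mice, and with fewer mice none was called (adjusted p = 0.276, 0.520 and 0.225). With DESeq2 they were -1.02, 1.0 and 0.75 and were not called either (adjusted p = 0.141, 0.177 and 0.141). None of the 25 was called in the alcohol contrasts or the interaction by edgeR, where 0 of the 5150 genes fitted in oligodendrocytes were called in any of the 3. At an unadjusted p under 0.05 there were 7 of the 25 in 3xTg-AD alcohol versus WT control, against 8.99% of all genes fitted. For 3xTg-AD versus WT control there were 4 (5.13%), and for 3xTg-AD alcohol versus WT alcohol 5 (6.68%). The count was 5 in WT alcohol versus WT control (9.2%), 2 in 3xTg-AD alcohol versus 3xTg-AD (5.18%) and 1 for the interaction (4.1%). Of 11 oligodendrocyte transcription factors, such as Sox10 and Olig2, 7 passed the filter and none was called in any contrast by edgeR, and 0 of 7 is near what the shares above give over all genes. At an unadjusted p under 0.05 there was 1 in 3xTg-AD alcohol versus WT control, against 8.99% of all genes fitted, and 1 in WT alcohol versus WT control.

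Genes next to Gpm6b on the X chromosome were also higher in 3xTg-AD mice. Of 11 genes other than Gpm6b within 1000000 bases of it, 9 passed the filter in at least 1 class, which gave 33 tests. In 3xTg-AD alcohol versus WT control mice 18 of the 33 were called higher (54.5%, against 1.88% of all genes and classes) and none lower. Counts for 3xTg-AD versus WT control and for 3xTg-AD alcohol versus WT alcohol were 14 (42.4%) and 13 (39.4%), also all higher, and for both alcohol contrasts and the interaction they were 0. Tmsb4x, an actin-binding thymosin at chrX:167207093-167209315 on the minus strand, was called higher in 8, 8 and 5 of the 8 classes in these 3 contrasts. In the first it gave 8 of the 18 calls. Its median log2 fold change over classes was 1.30, 1.26 and 0.74. Tests of 1 gene in several classes rest on the same mice and are not independent. In oligodendrocytes Tmsb4x was 2058 ± 575 CPM in WT and 4267 ± 886 CPM in 3xTg-AD mice (SD, n = 8). Trappc2, a subunit of a vesicle tethering complex, was called in 4, 3 and 3 of 6 classes, and Rab9, a small GTPase of endosomal transport, in 3, 2 and 2 of 6. Gemin8 was called in 1 of 3 classes in each contrast. Ofd1 (1 of 3 classes) and Tlr7 (in microglia, the 1 class where it passed) were called only in the contrast of the vapor groups. In the 3 contrasts, in the order above, the median log2 fold change of Ofd1 was 0.66, 0.70 and 0.73. That of Tlr7 was 1.36, 0.55 and 1.56. In microglia Tlr7 stood at 27.1 ± 14.8 CPM in WT and 64.7 ± 29.0 CPM in 3xTg-AD mice (SD, n = 8), and the genotypes overlapped. For 3xTg-AD alcohol over 3xTg-AD its log2 fold change was 0.81, without a call.

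The stretch was longer than this window. From 1000000 bases before Gpm6b to the end of the annotated genes after it, a span chosen after these values had been seen, 17 genes gave 57 tests. In the 3 contrasts between 3xTg-AD and WT mice, of which the first also differs in alcohol, 25, 22 and 21 were called higher and none lower. The log2 fold changes of the 17 genes were above 0 in 57, 57 and 55 of the 57 tests, with a median over genes of 1.06, 0.97 and 0.91. Among 20 genes between 5 and 1 Mb before Gpm6b (56 tests), 1 was called higher (Glra2, whose end also lies within the first window, where it is counted as well) and 1 lower (Ctps2) in 3xTg-AD alcohol versus WT control mice, and none in the other 2 contrasts, and the medians were 0.12, 0.02 and -0.01. On the rest of the X chromosome 15 of 1681 tests (0.892%) were called in the first contrast, none in the second and 1 (0.0595%) in the third. Within the span of 17 genes, calls lay from Gemin8, which starts just before Gpm6b, onward, and 9, 9 and 10 of the 17 genes were called in at least 1 class. What the change rests on was not tested.

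**Figure D5:**
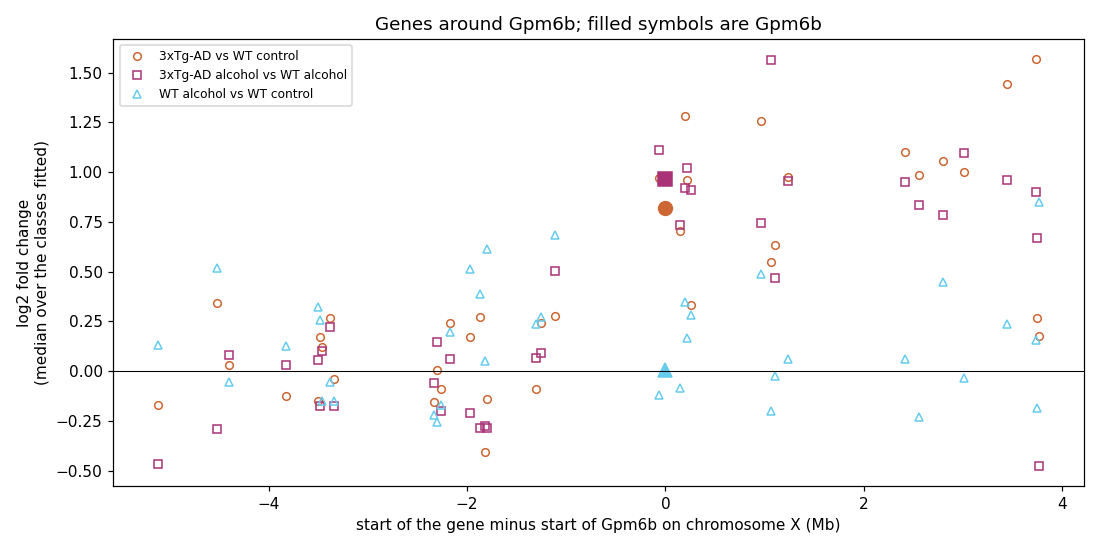
Median log2 fold change over the classes fitted for each gene around Gpm6b, against the distance of its start from that of Gpm6b in Mb, for 3 contrasts, with Gpm6b filled. Genes starting from 1 Mb before Gpm6b onward scatter around medians of 0.97 and 0.91 in both genotype contrasts, and genes 5 to 1 Mb before it around 0.02 and -0.01.

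The other members lie on separate autosomes, Mbp at chr18:82475146-82585637 (plus), Mog at chr17:37010743-37023398 (minus), Mag at chr7:30899176-30914873 (minus), Mobp at chr9:120149707-120181484 (plus), Cnp at chr11:100574904-100591729 (plus), Cldn11 at chr3:31149920-31164324 (plus) and Mal at chr2:127633226-127656695 (minus). Within 1000000 bases of Gpm6a 1 of 14 tests was called in each contrast between 3xTg-AD and WT mice. It was Gm15758 in each case, which was lower with log2 fold changes of -4.96, -5.60 and -5.17. Around Mag, in a dense part of chromosome 7, 5, 1 and 1 of 185 tests were called. They were Zfp14, Fxyd5, Fxyd1 and Alkbh6 (higher) and Zfp568 (lower) in 3xTg-AD alcohol versus WT control, Zfp14 again (higher) in 3xTg-AD versus WT control, and Psenen, a subunit of gamma-secretase (lower), in 3xTg-AD alcohol versus WT alcohol. Around Mobp 2 of 80 were called in the first contrast, Acaa1a (higher) and Gorasp1 (lower), and around Cnp 1 of 161 in each of the first 2, Hcrt (lower). Over all genes and classes 1.88%, 0.246% and 0.55% of tests were called in these contrasts, and each count here rests on at most 5 genes. None was called around Mbp, Mog, Cldn11 or Mal in the contrasts between 3xTg-AD and WT mice by edgeR.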

How the data were processed

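Single-nucleus RNA-Seq libraries (10x Genomics 3' v3.1) of the medial PFC of 16 mice were aligned by the authors to mm10 with Cell Ranger 6.1.1, which uses STAR. The authors deposited raw UMI counts in 1 table of 19999 genes and 114512 nuclei, without normalization. Each nucleus carries its sample, and groups were taken from the labels. Mice are the replicates (4 per group), so p-values measure the spread between mice.

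Nuclei were clustered with scanpy 1.11.5 in Python 3.11.15 (igraph 0.11.9, scikit-learn 1.9.0, scipy 1.17.1), on 2000 variable genes without the 9 members and the other listed myelin genes, 30 principal components, 20 neighbors and the Leiden method at a resolution of 1.5. This gave 28 clusters. A cluster of at least 50 nuclei took a class name when at least 3 of its markers were raised at least 1.5-fold, with 5 CPM added. The classes are rebuilt, so a difference from the study may come from the names. No doublet caller was run, and nuclei with markers of 2 classes were left out in an alternative instead.

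Counts were summed per mouse and class (at least 10 nuclei) and fitted with edgeR 4.0.16 in R 4.3.3 (TMM, filterByExpr, robust quasi-likelihood, a mean per group), with 6 contrasts and Benjamini-Hochberg adjustment within class and contrast. A call is an adjusted p of at most 0.05. VLMC were fitted over 15 mice, since 1 mouse had under 10 nuclei, and pericytes were not fitted. The fit was tested on simulated data. DESeq2 1.42.0 was an alternative. Precision is limited by UMIs, which ranged from 50540 to 389924 per mouse in oligodendrocytes.

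The members and lists were chosen with earlier results of these data known. Named were all 9 members, list genes called in oligodendrocytes (at most 5 per list and contrast), genes called within 1 Mb of a member (at most 6 per member), and the 5 genes most like Gpm6a, Gpm6b and Mbp over class means of log2(CPM + 1). Positions came from GENCODE M21, where 19664 of 19999 gene names matched. The human transgenes were not analysed here, and 1 of the listed genes is not reported by name.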

Additional observations from a re-analysis of the deposited data

Results flagged for a closer look

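Among the 98 groups of 4 mice that were looked at, 6 held a mouse far from the other 3, with a gap to the nearest of over 0.829 of the group's range. Chance gives about 1 such group in 20. Mobp in oligodendrocytes was 1179 CPM in 3xTg-AD alcohol mouse 31, above 903 to 931 CPM in the other mice of its group. Gpm6a in microglia was 996 CPM in WT alcohol mouse 6, against 753 to 779 CPM. Gpm6a in GABAergic neurons was 649 CPM in 3xTg-AD alcohol mouse 33, against 506 to 521 CPM. Gpm6b in glutamatergic neurons was 795 CPM in 3xTg-AD mouse 13, below the 877 to 891 CPM of its group but still above every WT mouse. Gpm6b in GABAergic neurons was 497 CPM in 3xTg-AD mouse 21, above 467 to 471 CPM. Oligodendrocytes were 3.68% of the nuclei in 3xTg-AD mouse 12, 1 of the 3 mice with high Gm42418, against 1.56% to 1.83% in the other mice of its group.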

How the results depend on the processing

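The count of members called was 0 in each of the 6 contrasts under all 23 alternatives, among them DESeq2, other size factors, no filter on low counts, other nuclei or classes, and each of the 16 mice left out. No paired analysis was possible because the mouse numbers differ between all groups. The median log2 fold change of the 7 myelin genes in oligodendrocytes, with each mouse left out, ranged from 0.21 to 0.45 for 3xTg-AD alcohol versus WT control and from -0.04 to 0.25 for 3xTg-AD versus WT control, where the latter and the medians of the other 4 changed sign. The median of Gpm6b over classes stayed between 0.77 and 1.11 over the 3 contrasts between 3xTg-AD and WT mice. Of 23 alternatives, the call of Sirt2 in 3xTg-AD alcohol versus WT control was lost in 8, that of Apod in 9 and that of Trf in 13, and that of Sirt2 against WT alcohol in 17. The log2 fold changes over these alternatives were -1.17 to -0.89 for Sirt2, 0.64 to 1.20 for Apod and 0.57 to 0.84 for Trf, and -1.17 to -0.61 for Sirt2 against WT alcohol. The difference in oligodendrocyte share between 3xTg-AD alcohol and WT control mice, -0.287 percentage points, turned to 0.216 without the 3 mice with high Gm42418 and to 0.197 with classes from marker UMIs, and ranged from -1.18 to 0.267 with 1 mouse left out (0.0538 without 3xTg-AD alcohol mouse 4, 0.161 without 33, 0.267 without WT control 36). The median log2 ratio of the 7 myelin genes of oligodendrocytes over glutamatergic neurons was 4.97 with classes from marker UMIs, in place of 5.60. The count of tests called near Gpm6b in 3xTg-AD alcohol versus WT control was 9 in a window of 500 kb in place of 18, where fewer genes were tested, and 15 to 20 with 1 mouse left out. It was 27 in a window of 5 Mb, chosen after seeing the data. The filter on low counts left Mog, Mag and Cldn11 out of the fits in 6 of the 8 classes, except in the alternative without a filter.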
